A study of Rattus norvegicus with 24 samples.

Results

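Neurotransmitter release depends on proteins that build the synaptic vesicle, dock it at the presynaptic membrane and drive its fusion. The transcripts of this machinery were followed in the dorsal striatum of rats that had self-administered methamphetamine (METH), a psychostimulant that releases dopamine. Members were the genes whose symbol in the platform annotation names synaptophysin (Syp), a synapsin (Syn1 to Syn3), or a member of the Syt, Syngr, Synj, Sv2, Snap, Stx, Stxbp, Vamp, Cplx or Rab3 series. In all, 72 of 13337 named genes matched, on 75 of 13793 named probes. The match works on letters, so it also took 9 genes that are not classed here with the vesicle cycle, such as Rab31 and Rab34. They are described in a paragraph of their own, but their 7 tested probes are included in all counts and medians over the members. Cplx2 was not among the matched symbols and was not analysed here.

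As background, a vesicle is marked by membrane proteins such as synaptophysin and the SV2 proteins, and it is tethered in clusters by the synapsins. Fusion is driven by SNARE proteins: a vesicle SNARE (Vamp1 or Vamp2, synaptobrevins) zips together with Snap25 and a syntaxin of the plasma membrane. Synaptotagmins sense calcium, complexins and the Stxbp proteins regulate SNARE assembly, Rab3 proteins escort vesicles to release sites, and synaptojanin 1 and Snap91 (AP180) take part in recovering vesicle membrane. In the striatum the terminals come largely from cortical, thalamic and dopamine neurons whose cell bodies, and so most of whose transcripts, lie elsewhere. Transcripts measured in striatal tissue come mainly from striatal cells. In such bulk tissue, fewer cells of a type and less RNA per cell cannot be told apart.

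The animals were male Sprague-Dawley rats. METH was self-administered at 0.1 mg/kg per injection in 15 h sessions over 8 days, and yoked animals received saline. Each sample was hybridised to 1 single-colour Illumina RatRef-12 array. There were 6 METH arrays from 2 h after the last session and 6 saline arrays on slide 1, and 6 METH arrays from 24 h after it and 6 saline arrays on slides 2 and 3, which held 3 of each group. No time of death is labelled for saline animals, and rats killed at 1 month were not analysed here. Time and slide coincide, so a difference between the 2 h and 24 h effects and a difference between slides cannot be told apart. Comparisons stayed within slides, each METH group against the saline group hybridised beside it.

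Between 8208 and 9428 probes were detected per array on slide 1, and between 9375 and 10306 on slides 2 and 3. The residual SD on the log2 scale was 0.250 on slide 1 and 0.178 on slides 2 and 3. Correlations between arrays ran from 0.922 to 0.991, and 0 pairs of arrays held identical values. The tissue label was checked with 16 markers of striatal projection neurons, of which 13 were tested, among them Drd1, Drd2, Penk and Ppp1r1b, and all 13 were detected on all 24 arrays. The authors' background-subtracted intensities were normalised between arrays and are given as log2 levels. A level is comparable between arrays for the same probe but not between probes.

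A probe was tested when its signal passed detection (p under 0.05) on at least 6 arrays. Of the 75 member probes, 31 were detected on all 24 arrays, 21 on 6 to 23 arrays and 23 on fewer than 6, including 17 on none. This left 52 tested probes of 51 genes, and 21 genes without a tested probe. Those 21 were Cplx3, Cplx4, Rab33b, Rab39a, Rab3c, Rab3il1, Stx11, Stx16, Stx17, Stxbp5l, Stxbp6, Sv2c, Syngr1, Syngr4, Syt13, Syt15, Syt2, Syt5, Syt6, Syt8 and Syt9. A probe kept because it was detected mainly in 1 group is favoured to differ between groups, so counts over the tested members describe them and carry no weight of their own.

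No member passed the test at 2 h, at 24 h or for the difference between the times. At 2 h, 0 of the 52 member probes reached a limma adjusted p under 0.05 (Benjamini-Hochberg over all 10354 tested probes), where 0.0676% of all tested probes did. At 24 h the count was again 0 of 52, against 0.0483% of all tested probes. For the effect at 24 h minus the effect at 2 h, 0 of 52 passed, as did 0% of all tested probes.

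Before adjustment, members were more often higher in METH rats at 2 h than the tested probes as a whole. At an unadjusted limma p under 0.05, 7 of 52 members (13.5%) were higher at 2 h, against 4.94% of all tested probes, and 3 of 52 (5.77%) were lower, against 4.29%. At 24 h, 1 of 52 (1.92%) was higher, against 1.09% of all, and 0 were lower, against 0.85%. For the difference between the times, 2 of 52 (3.85%) were higher at 24 h, against 2.12% of all, and 4 of 52 (7.69%) were lower, against 2.73%. The 2 h counts rested partly on single arrays: without saline replicate 2 of slide 1, 4 members were higher and 3 lower, and without saline replicate 1, 5 were higher and 5 lower. The count over all 10354 tested probes moved as well. It was 831 and 1338 in these refits, in either direction, against 511 higher and 444 lower with all arrays. The members share the same arrays, and the member counts are a description of them.

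The sizes of the differences were small at both times. The median log2 change of the members at 2 h was 0.06, against -0.0039 over all tested probes, and 33 members (63.5%) lay above 0, against 48.9% of all tested probes. At 24 h the members' median was -0.01, against -0.0020 for all, and 22 members (42.3%) lay above 0, against 49.4% of all. The middle of the members ran from -0.07 to 0.16 at 2 h (lower and upper quartile) and from -0.08 to 0.07 at 24 h. Per array, the members' median deviation from their group means had an SD of 0.0345 on slide 1 and 0.0424 on slides 2 and 3.

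**Figure D1:**
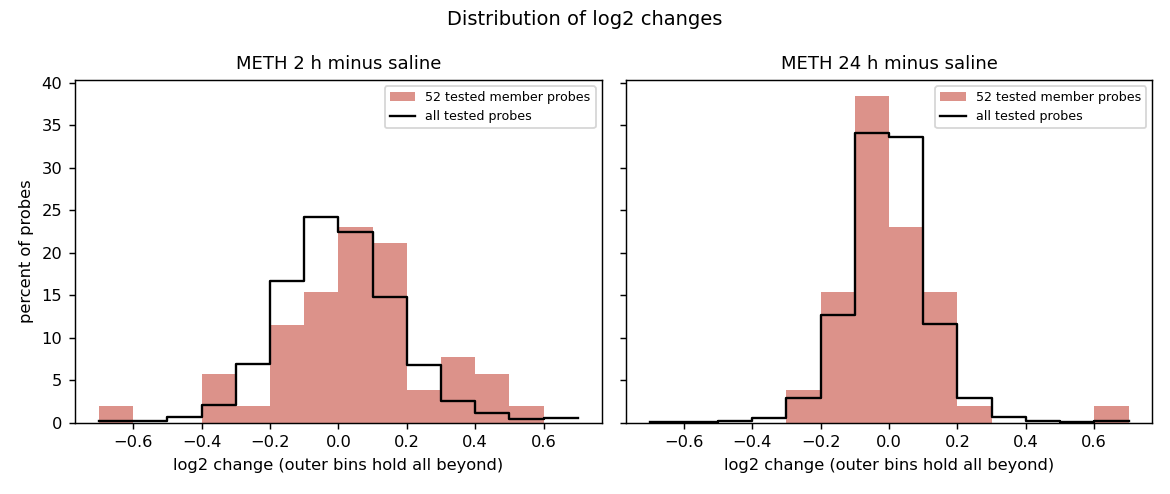
Percent of probes (y axis) by log2 change (x axis), METH minus saline, for the 52 tested member probes (filled) and all tested probes (line), at 2 h (left) and 24 h (right), with all changes beyond the outer bins counted in them, among them Sv2b (1.32) in the last bin at 24 h. The members' median is 0.06 against -0.0039 for all tested probes at 2 h, and -0.01 against -0.0020 at 24 h.

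The series title names CREB, a transcription factor that binds the cyclic AMP response element, so the members' promoters were searched for it. RefSeq promoters of the assembly GRCr8 (250 bases before to 50 bases after the gene start) were found for 57 of the 72 genes, with 63 promoters in all. The full element TGACGTCA occurred in 2 of 63 (3.17%), and its 5-base core, TGACG or CGTCA, on either strand, in 16 of 63 (25.4%). Over the 6483 promoters of genes with a tested probe the shares were 3.42% and 32.8%, and over all 33469 promoters 1.83% and 21.2%. The 45 promoters of tested members held them in 4.44% and 33.3%, close to the shares over all tested genes. The full element is its own reverse complement and contains overlapping cores, so it counts in both shares. Below are the only 2 promoters with the full element (Syn1 and Vamp1). The Stxbp3 promoter is shown as an example with 2 separate cores near its start. The promoter of Syp, the member with the lowest p at 2 h, comes last, and the search found neither element nor core in it. Sequences run 5′ to 3′ on the gene's strand, and capitals mark the full element or the core.
Syn1 (chrX:3725495-3725794, plus strand): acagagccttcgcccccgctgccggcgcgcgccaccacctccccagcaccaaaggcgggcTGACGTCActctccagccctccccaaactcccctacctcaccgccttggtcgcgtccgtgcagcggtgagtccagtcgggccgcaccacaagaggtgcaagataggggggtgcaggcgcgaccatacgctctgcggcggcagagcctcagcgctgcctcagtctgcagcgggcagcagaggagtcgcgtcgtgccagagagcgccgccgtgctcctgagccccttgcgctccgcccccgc
Vamp1 (chr4:159698644-159698943, plus strand): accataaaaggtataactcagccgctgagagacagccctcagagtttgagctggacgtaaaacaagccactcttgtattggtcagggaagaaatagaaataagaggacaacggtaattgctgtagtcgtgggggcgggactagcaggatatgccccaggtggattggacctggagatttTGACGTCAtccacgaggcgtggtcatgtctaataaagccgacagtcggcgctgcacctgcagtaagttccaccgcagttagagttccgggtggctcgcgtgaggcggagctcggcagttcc
Stxbp3 (chr2:199173774-199174073, minus strand): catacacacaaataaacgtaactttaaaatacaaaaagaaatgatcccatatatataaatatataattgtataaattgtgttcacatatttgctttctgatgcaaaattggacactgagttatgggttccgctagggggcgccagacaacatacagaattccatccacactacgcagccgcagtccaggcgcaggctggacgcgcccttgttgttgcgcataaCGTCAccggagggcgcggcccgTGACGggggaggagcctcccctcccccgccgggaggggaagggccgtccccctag
Syp (chrX:17536400-17536699, minus strand): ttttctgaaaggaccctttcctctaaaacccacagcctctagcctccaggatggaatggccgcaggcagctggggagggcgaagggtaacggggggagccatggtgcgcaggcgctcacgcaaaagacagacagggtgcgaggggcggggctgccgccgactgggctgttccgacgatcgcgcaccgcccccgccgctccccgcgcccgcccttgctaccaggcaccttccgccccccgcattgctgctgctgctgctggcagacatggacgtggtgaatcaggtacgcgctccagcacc
The element began 190 bases before the gene start in Syn1 and 71 bases before it in Vamp1. In Stxbp3 the cores began 27 and 5 bases before the start. Other members also held 2 cores near the start, among them Syt4 (first core 12 bases before it), Cplx1 (23) and Stx5 (16). The log2 changes at 2 h were 0.34 for Stxbp3, -0.31 for Syt4, 0.07 for Cplx1 and -0.11 for Stx5. A match is a run of letters and not evidence of binding.

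Among vesicle membrane proteins, Syp stood out at 2 h. Synaptophysin is a widely used marker of synaptic vesicles. Its level was 10.82, 11.03, 10.73, 10.96, 10.81 and 10.76 on the METH 2 h arrays, against 10.08, 10.31, 10.00, 10.57, 10.37 and 10.40 on the saline arrays of slide 1. All 6 METH arrays lay above all 6 saline arrays. Among all tested probes 0.251% showed that pattern, and among members Syp alone did (1.92%); 0 members showed the reverse pattern, against 0.145% of all tested probes. The log2 change was 0.56 ± 0.14 (SE), or 1.48-fold, with a limma adjusted p of 0.102. At 24 h Syp ran from 10.59 to 11.45 (median 11.14) in METH rats and from 10.48 to 11.42 (median 10.93) in saline rats. Those groups overlapped almost fully, with a log2 change of 0.12 ± 0.14 (SE). No member separated the groups at 24 h in either direction, where 0.0773% of all tested probes lay wholly above and 0.0966% wholly below. The change of Syp at 24 h minus that at 2 h was -0.44 ± 0.20 (SE, limma adjusted p = 0.989).

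Sv2b, an SV2 glycoprotein of the vesicle membrane, was the member with the widest spread. Its probe was very bright on many arrays, and whether it also detects another transcript was not tested, so its values are those of the probe annotated as Sv2b. Its pooled SD of 0.899 was wider than that of 99.7% of tested probes. On slide 1 its level was 14.60 on 5 of the 6 METH 2 h arrays and 14.30 on the other, against 14.60 on 3 saline arrays and 13.58, 14.30 and 12.93 on the rest. Identical levels arise because quantile normalisation gives a probe of the same rank the same value, so this very bright probe has a ceiling, and the deposited intensities behind it ran from 26357 to 34173 in METH rats and from 4578 to 30694 in saline rats. The groups shared the ceiling value at 2 h, and the log2 change was 0.45 ± 0.46 (SE, limma adjusted p = 0.795). At 24 h the METH arrays ran from 12.05 to 14.30 (median 14.01) and the saline arrays from 11.15 to 14.01 (median 12.35). The METH arrays lay near the top except for 1 low array, while 3 saline arrays lay near 11.2 and the others above 13. The log2 change was 1.32 ± 0.46 (SE), or 2.50-fold, and it was the only member change at 24 h with an unadjusted p under 0.05 (limma adjusted p = 1). It was 0.49 within slide 2 and 2.16 within slide 3, each with 3 arrays per group.

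Sv2a, the broadly expressed SV2 protein, and Syngr3, a synaptogyrin related to synaptophysin, had log2 changes of 0.08 and 0.14 at 2 h and of 0.07 and -0.13 at 24 h. The Sv2a probe was dim and not detected on every array. All 4 tested vesicle membrane probes thus lay above 0 at 2 h, with a median of 0.29, and 3 of 4 at 24 h, with a median of 0.10.

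The synapsins, phosphoproteins that hold vesicles in the reserve pool, differed less than their spread. Syn1 ran from 5.49 to 6.38 (median 6.17) in METH 2 h rats and from 5.26 to 6.37 (median 5.82) in saline rats, with a log2 change of 0.25 ± 0.21 (SE). The groups overlapped over most of their range. Syn2 and Syn3 changed by 0.12 ± 0.13 and 0.03 ± 0.10 (SE) on the log2 scale at 2 h. Both of these probes were dim, and neither was detected on every array of any group. At 24 h the changes of Syn1, Syn2 and Syn3 were -0.09, -0.04 and -0.02. The 3 synapsins lay above 0 at 2 h and below 0 at 24 h, and none of these changes exceeded 1.2 times its SE.

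**Figure D2:**
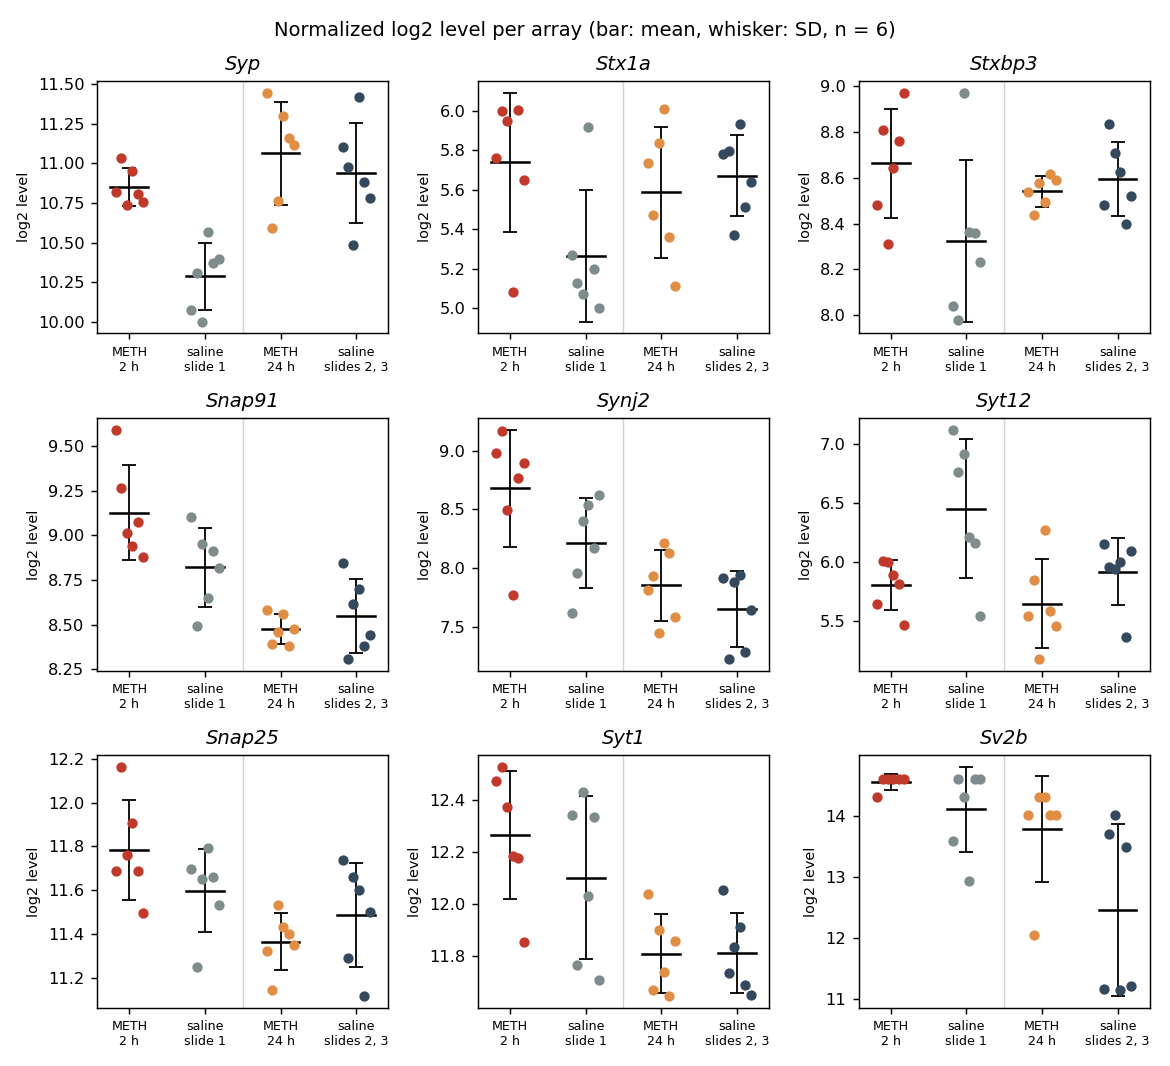
Normalised log2 level (y axis) of 9 members on each array (points), for METH 2 h, saline of slide 1, METH 24 h and saline of slides 2 and 3. Bars are means and whiskers SD (n = 6). Syp separates METH 2 h arrays (10.73 to 11.03) from saline arrays (10.00 to 10.57), whereas the groups of the other 8 genes overlap.

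Of the SNARE proteins, 17 probes were tested, 13 lay above 0 at 2 h and 8 at 24 h, with median log2 changes of 0.09 and -0.03. Stx1a, the neuronal syntaxin of the plasma membrane, had the largest difference of them at 2 h. It ran from 5.08 to 6.0 (median 5.85) in METH rats and from 5.00 to 5.92 (median 5.16) in saline rats. Of the METH arrays, 3 lay above every saline array, and 1 saline array at 5.92 lay apart from the other 5, which reached 5.27. The probe was dim, detected on 5 of 6 METH 2 h arrays and on 2 of 6 saline arrays. The log2 change was 0.48 ± 0.17 (SE), or 1.39-fold (limma adjusted p = 0.325). At 24 h it was -0.08 ± 0.17 (SE), and the change at 24 h minus that at 2 h was -0.56 ± 0.24 (SE, limma adjusted p = 0.989).

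The other subunits of the fusion complex differed by less. Snap25, which supplies a pair of helices to the SNARE bundle, ran from 11.50 to 12.16 (median 11.72) in METH 2 h rats and from 11.25 to 11.79 (median 11.66) in saline rats. The 95% interval of its log2 change ran from -0.06 to 0.43 at 2 h and from -0.37 to 0.13 at 24 h. Vamp2, the main synaptobrevin of forebrain vesicles, changed by 0.13 ± 0.17 (SE) at 2 h and 0.14 ± 0.17 (SE) at 24 h. Vamp1, the other synaptobrevin and a carrier of the full cyclic AMP response element shown above, ran from 5.09 to 6.17 (median 5.80) in METH 2 h rats and from 4.97 to 5.87 (median 5.49) in saline rats. Its log2 change was 0.31 ± 0.20 (SE) at 2 h and -0.15 ± 0.20 (SE) at 24 h. For these genes the groups overlapped at both times.

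Stx3, a syntaxin found at ribbon synapses and in dendrites, was the SNARE with the lowest value relative to saline at 2 h. It ran from 5.02 to 5.26 (median 5.16) in METH rats and from 5.10 to 5.94 (median 5.49) in saline rats. Both ranges reached down to levels close to background. The log2 change was -0.32 ± 0.12 (SE), or 1.25-fold lower (limma adjusted p = 0.342), and 2 METH values were under the lowest saline value. At 24 h it was 0.05 ± 0.12 (SE), and the difference between the times was 0.37 ± 0.17 (SE, limma adjusted p = 0.989). SNAREs of the secretory and endosomal pathway had small differences: across Stx4 to Stx8, Stx12, Snap47, Vamp3 to Vamp5, Vamp7 and Vamp8, changes ran from -0.17 (Stx12) to 0.12 (Stx4) at 2 h. Stx8, an endosomal syntaxin, had the tightest spread of the members (pooled SD 0.124, at percentile 2 of the tested probes) and changes of 0.11 at 2 h and 0.13 at 24 h.

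The synaptotagmins, a family that includes the calcium sensors of release, split evenly at 2 h, with 4 of 8 tested synaptotagmin probes above 0 and 4 below, and 1 of 8 above 0 at 24 h. Syt1, the sensor for fast release, ran from 11.85 to 12.53 (median 12.28) in METH 2 h rats and from 11.71 to 12.43 (median 12.18) in saline rats. Its 95% interval of log2 change was -0.10 to 0.43 at 2 h and -0.27 to 0.26 at 24 h. Syt12, a synaptotagmin without calcium binding, lay at the other end. It ran from 5.46 to 6.01 (median 5.85) in METH 2 h rats and from 5.54 to 7.12 (median 6.49) in saline rats. The METH arrays were tightly grouped and the saline arrays were spread widely, with 1 METH array below every saline array. The log2 change was -0.65 ± 0.21 (SE), or 1.57-fold lower (limma adjusted p = 0.259), and -0.27 ± 0.21 (SE) at 24 h. Syt4, whose transcript is induced by neuronal activity, changed by -0.31 ± 0.15 (SE) at 2 h and by less than 0.01 at 24 h. Syt7, the sensor of slow release, changed by -0.17 ± 0.10 (SE) at 2 h, and its probe was dim and not detected on every array.

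Among SNARE regulators, 3 of 6 tested probes were higher at 2 h before adjustment, against 4.94% of all tested probes, and 0 at 24 h, against 1.09%. Stxbp3 (Munc18c), which pairs with syntaxins outside the fast release site and whose promoter is shown above, ran from 8.31 to 8.97 (median 8.70) in METH 2 h rats and from 7.98 to 8.97 (median 8.30) in saline rats. Of the METH arrays, 1 lay above every saline array, by less than 0.01, and the log2 change was 0.34 ± 0.13 (SE), or 1.26-fold (limma adjusted p = 0.380). At 24 h it was -0.05 ± 0.13 (SE). Stxbp2 (Munc18b), known from mast cell and platelet secretion, was detected on 7 of 24 arrays, 3 of them METH 2 h arrays and 1 a saline array of slide 1. It ran from 5.19 to 5.70 (median 5.35) in METH 2 h rats and from 5.04 to 5.25 (median 5.12) in saline rats. It passed the filter only through the METH 2 h arrays, where it was higher, so its difference is not read as a result. It is 1 of the 3 regulator probes, and 1 of the 7 members, counted as higher at 2 h.

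The 2 probes of Stxbp5 (tomosyn, an inhibitor of SNARE assembly) disagreed. The dimmer probe, detected on 15 arrays, ran from 5.12 to 6.15 (median 5.47) in METH 2 h rats and from 5.01 to 5.41 (median 5.19) in saline rats. Its log2 change was 0.40 ± 0.14 (SE, limma adjusted p = 0.325). The probe detected on all 24 arrays ran from 6.59 to 7.38 (median 7.16) in METH 2 h rats and from 6.71 to 7.24 (median 7.16) in saline rats, with a change of less than 0.01 in size ± 0.12 (SE). Cplx1, a complexin that clamps and then speeds fusion, changed by 0.07 ± 0.14 (SE) at 2 h and -0.04 ± 0.14 (SE) at 24 h.

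The 4 tested probes of Rab3 GTPases and partners all lay below 0 at 2 h, with a median of -0.10, and none passed even before adjustment. Rab3a, the main Rab3 of brain synapses, ran from 7.76 to 8.71 (median 8.35) in METH 2 h rats and from 8.13 to 8.53 (median 8.34) in saline rats. Its log2 change was -0.07 ± 0.14 (SE) at 2 h and -0.02 ± 0.14 (SE) at 24 h. Rab3d and Rab3b had changes of -0.23 and -0.13 at 2 h, each smaller than 1.5 times its SE.

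Membrane retrieval was represented by 3 members, all above 0 at 2 h with a median log2 change of 0.31. Snap91 (AP180), a clathrin adaptor of nerve terminals, ran from 8.88 to 9.59 (median 9.05) in METH 2 h rats and from 8.49 to 9.11 (median 8.87) in saline rats. Of the METH arrays, 2 lay above every saline array, and the log2 change was 0.31 ± 0.12 (SE), or 1.24-fold (limma adjusted p = 0.401). Synj2, a phosphoinositide phosphatase, ran from 7.77 to 9.17 (median 8.83) in METH 2 h rats and from 7.61 to 8.62 (median 8.29) in saline rats. Of the METH arrays, 4 lay above every saline array and 1 lay low, and the log2 change was 0.46 ± 0.20 (SE), or 1.38-fold (limma adjusted p = 0.465). Synj1, the synaptojanin of nerve terminals, changed by 0.01 ± 0.12 (SE) at 2 h and 0.15 ± 0.12 (SE) at 24 h. At 24 h Snap91 changed by -0.07 ± 0.12 (SE) and Synj2 by 0.21 ± 0.20 (SE).

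The 7 tested genes that matched by letters alone had a median log2 change of -0.05 at 2 h and 0.07 at 24 h. Rab38, a GTPase of pigment and lung secretory organelles, was the member with the lowest unadjusted p for the difference between the times. It ran from 4.91 to 5.49 (median 4.98) in METH 2 h rats and from 5.24 to 5.47 (median 5.35) in saline rats, with 5 of 6 METH arrays below every saline array and 1 above all of them. The log2 change was -0.31 ± 0.10 (SE, limma adjusted p = 0.269) at 2 h and 0.13 ± 0.10 (SE) at 24 h, a difference of 0.44 ± 0.14 (SE, limma adjusted p = 0.791). It was detected on only 1 METH 2 h array and on 14 arrays in all, so these levels lie close to background.

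**Figure D3:**
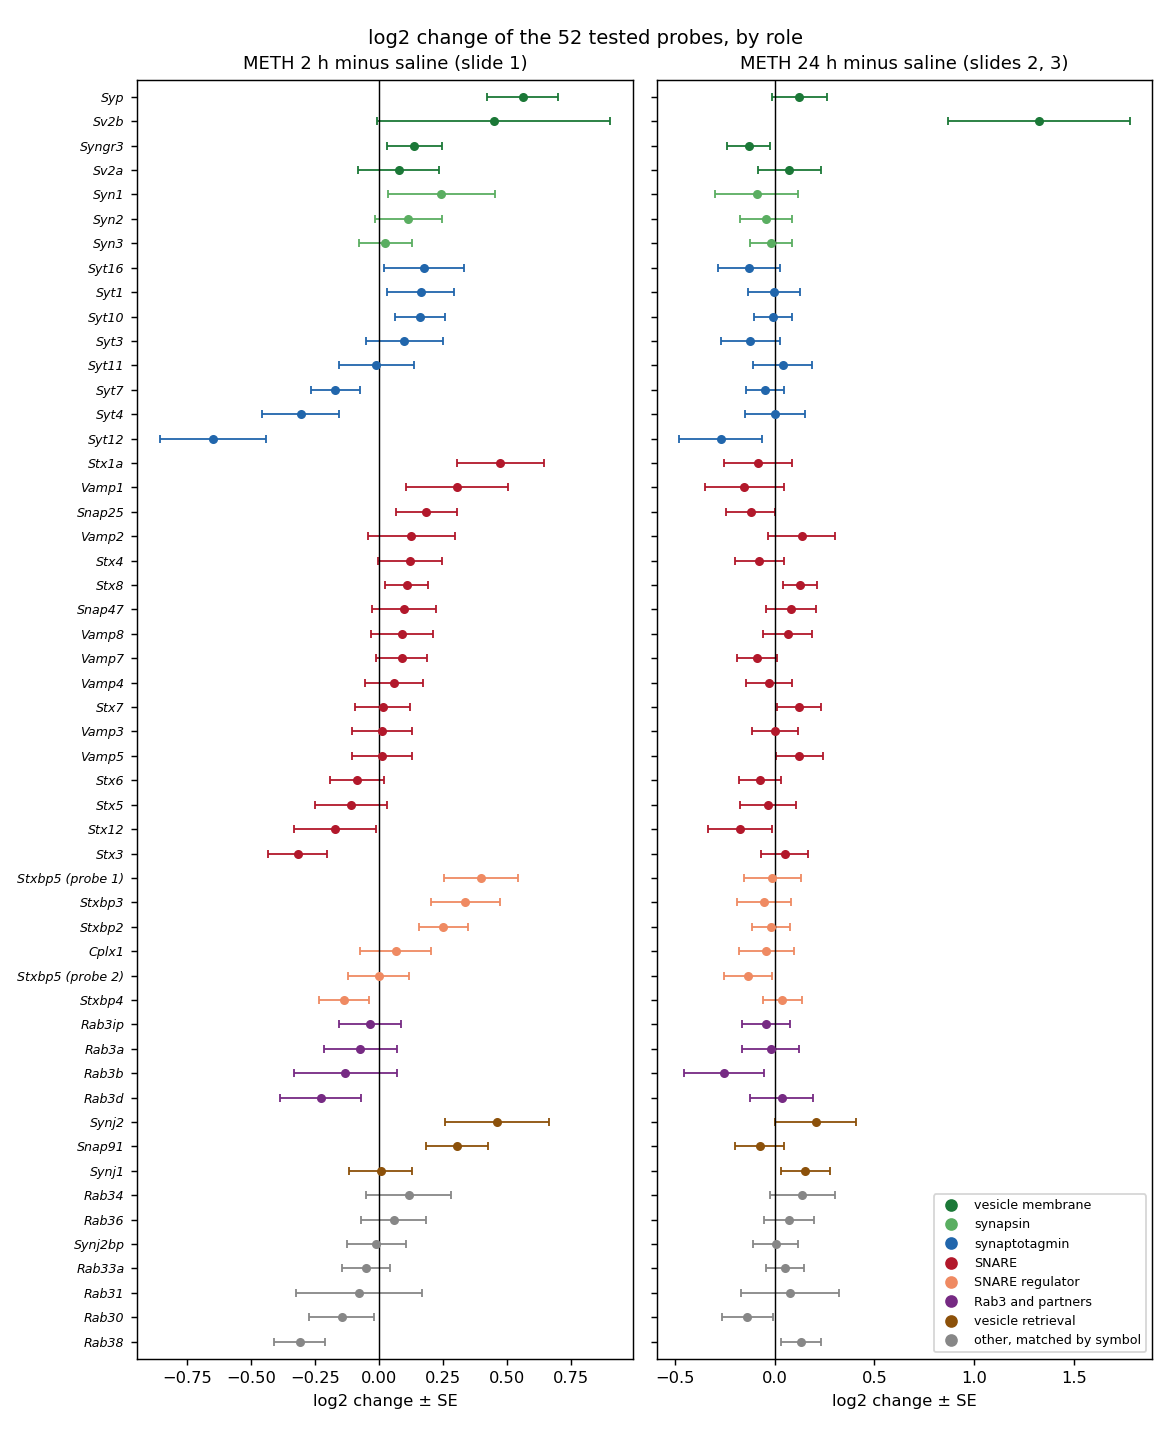
Log2 change ± SE (x axis) of the 52 tested member probes (rows, coloured by role), METH minus saline, at 2 h (left) and 24 h (right). At 2 h Syp (0.56) and Syt12 (-0.65) mark the ends of the range, and at 24 h Sv2b (1.32) is the only member far from 0.

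Other genes of the release machinery, from lists not restricted to the symbol match, also had no member past the adjusted threshold at either time. Of 9 tested fusion genes, 0 were past an unadjusted p under 0.05 at 2 h, and Nsf, the ATPase that takes SNARE complexes apart, changed by 0.05. Of 12 tested active zone and priming genes, 3 were lower at 2 h before adjustment, against 4.29% of all tested probes, and the median log2 change was -0.12. Lin7b, a scaffold protein, had the largest of these values, -0.56 (limma adjusted p = 0.137), followed by Ppfia2 (liprin-alpha-2) at -0.32 and Unc13c (a Munc13) at -0.31. Of 16 tested vesicle retrieval genes, 2 were higher at 2 h before adjustment, against 4.94% of all tested probes: Clta, a clathrin light chain, at 0.32 and Amph (amphiphysin) at 0.29. The vesicle filling list had 14 of 16 genes above 0 at 2 h, against 48.9% of all tested probes, led by the glutamate transporters Slc17a6 (0.91) and Slc17a7 (0.83). All 9 tested dense-core vesicle genes lay above 0 at 2 h, against 48.9% of all tested probes, with a median of 0.22. Before adjustment 3 of them were higher, against 4.94% of all tested probes: Scg2 (secretogranin II) at 0.47, Chga (chromogranin A) at 0.42 and Cadps (a priming factor) at 0.32. At 24 h the medians of these 5 lists lay between -0.04 and 0.10. Sncg, the only synuclein tested, changed by -0.24 at 2 h and -0.66 at 24 h, with limma adjusted p of 0.857 and 1.

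**Figure D4:**
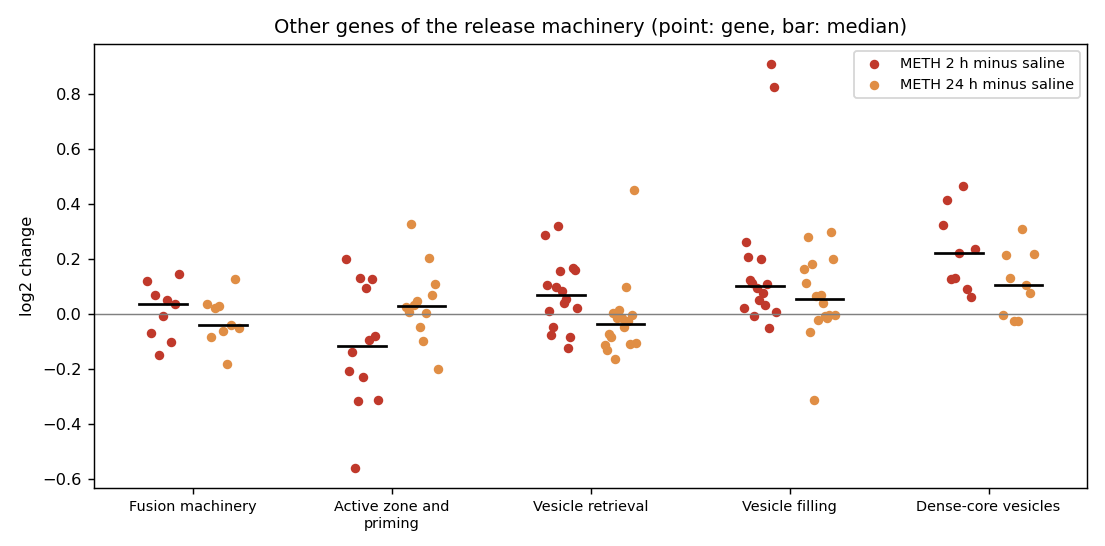
Log2 change (y axis, METH minus saline) of the tested genes of 5 pathway lists (points, bar at the median) at 2 h and 24 h. At 2 h the dense-core vesicle genes all lie above 0 (median 0.22) and 8 of 12 active zone genes lie below 0 (median -0.12).

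Markers of cortical excitatory neurons were also read at 2 h. These neurons express Slc17a7 and lie just above the dorsal striatum. Of 17 listed markers, 8 were tested, 6 lay above 0 at 2 h and 5 were higher before adjustment, against 4.94% of all tested probes, with a median log2 change of 0.69. None of the 8 passed the adjusted threshold (0 of 8 by limma). They included Cck (1.69), Neurod6 (1.20), Slc17a7 (0.83), Satb1 (0.70) and Fezf2 (0.67), while Emx1, Lmo4 and Nrgn lay within 0.05 of 0. The mean level of the 8 markers ran from 8.01 to 9.10 on METH 2 h arrays and from 7.43 to 8.67 on saline arrays. Slc17a7 and Neurod6 were each detected on only 2 of 6 saline arrays of slide 1, against 5 and 6 METH arrays. The 13 tested markers of striatal projection neurons had a median of -0.24, and 5 of them were lower before adjustment, against 4.29% of all tested probes, with 0 past the adjusted threshold. Their mean ran from 10.66 to 10.98 on METH 2 h arrays and from 10.96 to 11.24 on saline arrays. At 24 h the medians were 0.16 for the cortical and 0.02 for the striatal list.

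With the cortical marker mean as a covariate in the fit, the 2 h counts before adjustment were 5 members higher and 4 lower, and the members' median was 0.06. Over all 10354 tested probes the count in that fit was 1209 in either direction, against 511 higher and 444 lower without the covariate. The log2 change of Syp was then 0.49 (limma adjusted p = 0.259). That of Stx1a was 0.13, that of Snap91 was 0.18 and that of Synj2 was 0.24, so these 3 moved by more than 1.5 times. The METH array with the lowest mean (8.01) had a Syp level of 10.96. The saline array with the highest mean (8.67) had 10.57, which was also the highest Syp level of the slide 1 saline arrays. These are single arrays, and that saline array (replicate 4) had the fewest detected probes of any array, 8208. In the fit with array weights, its weight was 0.355, the lowest of any array. The weight of that METH array (replicate 4) was 0.5435. The part of cortical tissue in the members' values was not tested.

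**Figure D5:**
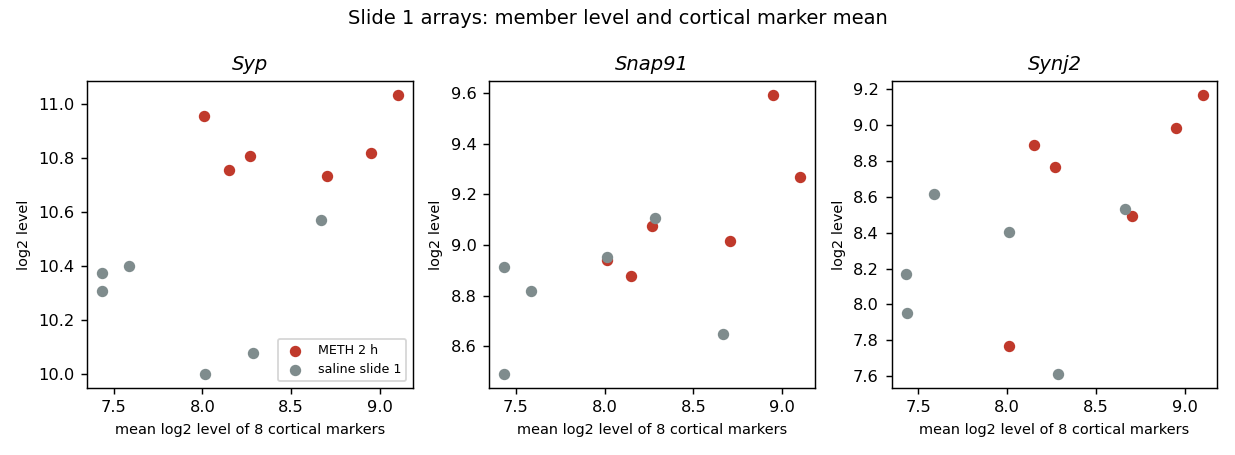
Log2 level of Syp, Snap91 and Synj2 (y axes) against the mean log2 level of 8 cortical excitatory neuron markers (x axis) on the METH 2 h arrays (red) and the slide 1 saline arrays (grey). METH arrays run from 8.01 to 9.10 on the marker mean and saline arrays from 7.43 to 8.67, and Syp levels of the groups do not overlap.

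The other marker lists were read beside the members in the same way. At 24 h, 4 of 6 tested blood genes fell past the adjusted threshold, against 5 (0.0483%) of all tested probes in either direction. The median log2 change over the blood list was -1.60, while the members' median was -0.01. Microglial markers had a median of 0.38 at 24 h, and 4 of 7 were higher before adjustment, against 1.09% of all tested probes. The 9 tested interneuron markers had a median of 0.18 at 2 h, with 7 above 0, against 48.9% of all tested probes. Before adjustment 2 were higher, against 4.94% of all tested probes, and 1 was lower, against 4.29%. Of these markers, Vip had a log2 change of 1.32 at 2 h (limma adjusted p = 0.0754). It was detected on 6 METH arrays and 0 saline arrays of slide 1, so its detection there lay wholly in the group where it was higher. The medians at 2 h were 0.03 for astrocyte, -0.13 for oligodendrocyte, 0.06 for microglial and -0.09 for endothelial markers. For the 6 tested blood genes the median was -0.25 at 2 h, and 0 lay above 0, against 48.9% of all tested probes. Only 1 choroid plexus marker was tested, with log2 changes of -1.53 at 2 h and -1.33 at 24 h. Its level varied widely, from 4.87 to 12.51 on the slide 1 saline arrays. The part of these cell types in the members' values was not tested.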

How the data were processed

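The arrays measured dorsal striatum RNA, and samples were grouped by the treatment and time in their titles. The members, lists and comparisons were chosen with earlier results of these data known. The authors deposited probe intensity for 22523 probes, background-subtracted since 26.4% to 31.7% of an array's values lie below 0; the sources used here do not name the software. The deposited detection score stands in another probe order (rank correlation with intensity -0.0136 to -0.00495) and rises with signal, so sorted scores were assigned to sorted intensities, and the detection p follows from rank. The authors' deposited log2 values equal log2 of the intensity floored at 1 minus a probe median per slide set, and served as an alternative.

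Intensities were corrected by normexp (offset 16) and quantile-normalised on the log2 scale with neqc in limma 3.58.1 (R 4.3.3). The offset makes folds of dim probes too small. Probes detected (p under 0.05) in 6 or more arrays, 10354 in all, were fitted with lmFit and eBayes. The model held the 4 group means and an effect of slide 3 relative to slide 2, and p-values were adjusted by Benjamini-Hochberg at 0.05. Each array was counted as 1 animal, since the labels describe separate groups, and the number of arrays limits the precision.

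Described in full were core genes of release, members with an unadjusted p under 0.05 (at most the 10 lowest per contrast) and members whose groups did not overlap. Symbols came from the platform annotation, and all 75 member probes matched a RefSeq gene of GRCr8.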

Additional observations from a re-analysis of the deposited data

Results flagged for a closer look

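In 88 groups of 6 arrays, over 22 members, 6 groups held an array far from its neighbours by Dixon's criterion, where chance alone gives about 1 in 20. Stx1a was 5.92 on 1 saline array of slide 1, against 5.00 to 5.27 on the others. Syn1 was 5.49 on 1 METH 2 h array, against 6.11 to 6.38 on the others. Sv2b was 14.3 on 1 METH 2 h array, against 14.6 on the others, which share the ceiling of the normalisation. Sv2b was also 12.05 on 1 METH 24 h array, against 14.01 to 14.30 on the others, and its log2 change at 24 h was 1.73 without that array. Syt12 was 5.36 on 1 saline array of slides 2 and 3, against 5.94 to 6.15 on the others. Rab38 was 5.49 on 1 METH 2 h array, against 4.91 to 5.03 on the others.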

How the results depend on the processing

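The count of members past the adjusted threshold was 0 in each contrast under each of 11 alternative settings and without each of the 24 arrays in turn. All 537 recomputed values of 42 single-gene results had an adjusted p above 0.05, and 21 of them changed sign. The count over all tested probes did move. At 2 h it was 7 as reported, 11 without normexp, 3 with median scaling in place of quantiles, 3 with no filter on dim probes, 2 with the deposited log2 values, 1 with separate fits for the slides and 2 with array weights. It was 29 without the 2 arrays of lowest weight on slide 1 (saline replicate 4 and METH replicate 6), an alternative chosen after seeing the data. At 24 h it was 5 as reported, 2 without normexp, 3 with no filter, 0 with the deposited log2 values, 2 with these centred per array and 8 with separate fits. For the difference between the times it was 0 as reported, 4 with array weights and 4 without the 2 arrays of lowest weight, and separate fits give no value for it. The cause of these moves was not tested. Leaving out 1 array at a time gave 3 to 17 probes at 2 h, 4 to 7 at 24 h and 0 to 4 for the difference. At 2 h the count moved by over 1.5 times without saline replicate 1 (16), 2 (3), 3 (3) or 4 (16) of slide 1 and without METH replicate 4 (11) or 6 (17). For the difference it was 3 without saline replicate 3 of slide 1, 4 without METH 2 h replicate 6 and 3 without METH 24 h replicate 5. Members past an unadjusted p under 0.05 numbered 4 to 8 higher and 3 to 5 lower at 2 h in that series, 1 higher and 0 lower at 24 h, and 1 to 2 higher and 1 to 6 lower for the difference. Over all 10354 tested probes the count in either direction ran from 831 to 1338 at 2 h, from 152 to 256 at 24 h and from 385 to 727 for the difference. The median log2 change of the members at 2 h was 0.2102 with median scaling and 0.2783 with the deposited values, but those settings moved the median of all probes to 0.1545 and 0.1995. Leaving out 1 array at a time, it ran from 0.0376 to 0.0667 at 2 h and from -0.0219 to 0.0049 at 24 h. Syp at 2 h ran from 0.51 to 0.62 in that series, with a limma adjusted p from 0.0678 (without saline replicate 4) to 0.229. No paired analysis was possible because the labels give the arrays no replicate numbers. Signal over background limits dim probes: 21 of the 52 tested member probes were detected on only 6 to 23 arrays.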
